A study of Mus musculus with 6 samples.

Results

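Cdc14a, Myod1, Cish and Aplnr are 4 genes whose array signal was higher in mouse skeletal muscle after a meal than in muscle of mice that went on fasting. They were chosen by symbol from the authors' deposited list of features that differ between refed and fasted muscle. Each had 1 feature in that list. These features are 4 of the 41345 on the array and 4 of the 134 listed ones with a gene symbol. Most features on the array carry no name, so further features of these genes could not be looked for. The list was made on the same arrays, and its headers also name comparisons with further, even-numbered arrays that are not analysed here. The values that separate refed from fasted muscle therefore chose these genes. For this contrast they are described, and the fit over all features is given only as background.

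The muscle was tibialis anterior, a fast muscle at the front of the lower leg, of male C57Bl/6 mice 18 weeks old, with no transgene or mutation named. All mice lost access to food at 1800 hr. At about 0800 hr the fasted group (3 arrays, replicates 1, 3 and 5) stayed without food, while the refed group (3 arrays, replicates 7, 9 and 11) ate for 30 minutes. Food was then kept from both groups for a further 4 hr, so that refed muscle was taken in a second, short fast. The question was which transcripts in muscle differ after nutrients are consumed.

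A meal raises insulin and amino acids, and muscle turns from breaking down its protein to building it. The 4 genes code for a receptor, an inhibitor of receptor signalling, a phosphatase and a transcription factor. Aplnr codes for the apelin receptor, a G protein-coupled receptor known from endothelium that binds the peptides apelin and Elabela. Cish codes for a SOCS family protein whose SH2 domain binds activated cytokine receptors. STAT5, the factor that growth hormone and several cytokines activate, induces Cish, and the Cish protein then restrains that same signal. Cdc14a codes for a dual-specificity phosphatase; in budding yeast Cdc14 drives the exit from mitosis, and in mammals CDC14A has been tied to the actin skeleton, cilia and hearing. Myod1 codes for MyoD, the basic helix-loop-helix factor that commits cells to the muscle lineage by binding E-boxes, and which adult fast fibres and activated satellite cells also express.

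Promoter sequence is shown for the Cish and Cdc14a genes, with motifs of factors named above. These are STAT5, which acts on Cish, and E-box factors in general, the class to which MyoD belongs. RefSeq promoter windows (GRCm38.p6, 250 bases before to 50 after each annotated transcript start) were at hand for 2 of the 4 genes. Cish had 1 window and Cdc14a had 3, for 3 alternative starts. The MyoD-type form of the E-box, CAGCTG, was in none of these windows. The Cish stretch is chr9:107296409-107296678 on the plus strand, which takes in the first 20 transcribed bases, with matches to the STAT site TTCNNNGAA in capitals. The Cdc14a stretches are the 250 bases before the outermost start (start 1, chr3:116428742-116428991) and before the next one (start 2, chr3:116424073-116424322), both on the minus strand, with matches to the E-box CANNTG in capitals.
Cish: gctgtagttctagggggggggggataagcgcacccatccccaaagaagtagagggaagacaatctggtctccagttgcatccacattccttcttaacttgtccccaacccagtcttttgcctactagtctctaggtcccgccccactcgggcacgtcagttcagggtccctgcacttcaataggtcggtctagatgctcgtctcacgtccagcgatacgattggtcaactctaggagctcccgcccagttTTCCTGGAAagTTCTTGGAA
Cdc14a start 1: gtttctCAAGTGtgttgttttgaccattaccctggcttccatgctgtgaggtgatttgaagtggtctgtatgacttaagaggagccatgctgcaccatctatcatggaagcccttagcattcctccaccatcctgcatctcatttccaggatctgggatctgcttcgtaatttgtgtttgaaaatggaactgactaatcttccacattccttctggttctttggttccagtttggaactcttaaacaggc
Cdc14a start 2: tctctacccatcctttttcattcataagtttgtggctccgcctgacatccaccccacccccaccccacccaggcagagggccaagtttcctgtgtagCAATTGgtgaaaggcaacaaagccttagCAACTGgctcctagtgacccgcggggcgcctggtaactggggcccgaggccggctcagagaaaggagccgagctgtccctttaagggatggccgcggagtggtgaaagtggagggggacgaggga

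The Cish window held 2 STAT site matches side by side. With the first transcribed base counted as 1, they covered bases 1 to 9 and 12 to 20, and thus lay at the very start of the annotated transcript. Of 32851 promoter windows of the same length, which include several for some genes, 8.3% held at least 1 such match and 0.457% held 2 or more. The motif reads the same on both strands, so that each match was counted once. None of the 3 Cdc14a windows held a STAT site match.

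E-box matches were present in all 4 windows, with 1 in that of Cish and 1, 2 and 2 in those of Cdc14a. This is a common motif, found in 72.3% of all windows, and 39.6% held 2 or more. The GC box GGGCGG occurred 2 times in the Cish window and 2 times at Cdc14a start 2. Of all windows, 35.7% held any and 19.5% held 2 or more. The CRE core TGACG occurred 1 time each at Cish and at Cdc14a start 3, where 20.8% of windows hold one. Searched on both strands, the letters of 6 further motifs were in none of the 4 windows. These were CACGTG and the MyoD-type form CAGCTG, both special cases of the E-box, and the CRE TGACGTCA, which contains that core. The others were the FoxO site TGTTTAC, the TATA box TATAAA and the glucocorticoid response hexamer AGAACA. Among all windows these 6 motifs were present in 7.15%, 16.3%, 1.79%, 3.65%, 13.6% and 19.0%, in that order. A match is a description of letters and shows no binding.

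**Figure D1:**
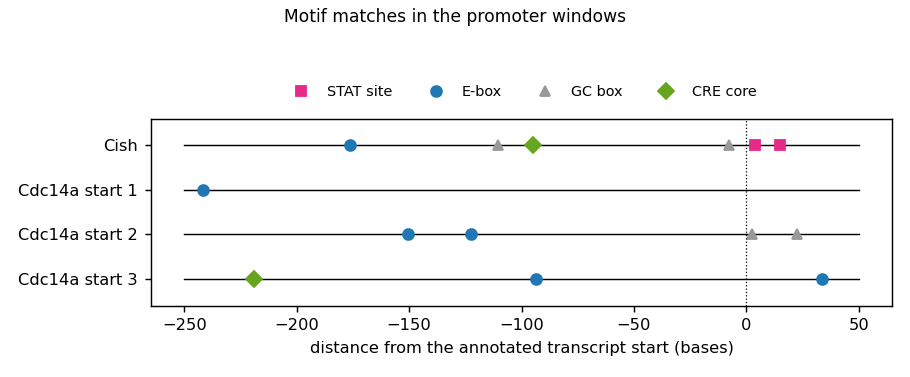
Motif matches (symbols) in the 4 promoter windows, by distance in bases from the annotated transcript start (dotted line), one line per window. The 2 STAT site matches (squares) of Cish lie just after the start, and the Cdc14a windows hold no STAT site. E-box matches (circles) lie in all 4 windows. GC boxes (triangles) lie at Cish and at Cdc14a start 2, and CRE cores (diamonds) at Cish and at Cdc14a start 3.

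The 6 arrays were alike in median signal and in correlation. Their median log2 signals ran from 5.02 to 5.06, and Pearson's r between any 2 arrays over all features was 0.978 to 0.983, features not being independent replicates. Limma's array weights, lower where an array strays more from the fit, ran from 0.666 (fasted array 1) to 1.54 (fasted array 3). Arrays are counted as separate samples because their titles differ, and no label ties each one to a mouse of its own, so the spread given here may be technical in part. Fasted arrays carry the lower replicate numbers and refed arrays the higher ones; should these numbers follow the order of handling, which no label states, order and meal cannot be told apart. The muscle fibre markers fixed for a check of the tissue carry no name in the tables used here, so that check was not made.

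Among the receptor and signalling genes, Aplnr (chromosome 2, 85136360 to 85139923, GRCm38.p6) had log2 signals of 6.26, 6.64 and 6.38 on fasted arrays 1, 3 and 5, and 7.12, 7.50 and 6.94 on refed arrays 7, 9 and 11. The groups did not overlap, and refed array 9 stood highest. Refed muscle averaged 7.19 ± 0.29 and fasted muscle 6.42 ± 0.19 (SD, n = 3 each), a difference of 0.76 (SE 0.18) on the log2 scale or 1.70-fold. The lowest refed value exceeded the highest fasted one by 0.31. In a piece of whole muscle, more cells that carry the receptor and more Aplnr RNA per cell cannot be told apart, and the same holds for the other 3 genes.

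Cish (chromosome 9, 107296659 to 107302784) gave log2 signals of 4.89, 4.73 and 4.89 on the fasted arrays and 5.93, 5.50 and 5.55 on the refed ones. Its fasted arrays lay within 0.16 of each other, the tightest group of any of the 4 genes, while refed array 7 stood 0.27 above its group mean. Cish averaged 5.66 ± 0.23 in refed and 4.84 ± 0.09 in fasted muscle (SD, n = 3 each), a log2 difference of 0.82 (SE 0.15) or 1.77-fold. The gap between the groups was 0.61. It had the dimmest feature of the 4, with a mean signal above that of 55.0% of all features on the array. Brightness depends on the probes and does not rank these genes by RNA amount.

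Cdc14a (chromosome 3, 116272553 to 116428741) had the largest difference of the 4 genes. Its log2 signals were 7.55, 7.97 and 7.99 on fasted arrays and 8.91, 8.69 and 8.88 on refed arrays. Fasted array 1 was the low one, and the refed arrays lay within 0.21 of each other. The means of 8.83 ± 0.12 and 7.84 ± 0.25 (SD, n = 3 each) differed by 0.99 (SE 0.16) on the log2 scale, or 1.99-fold, with a gap of 0.70 between the groups. Cdc14a spans 156189 bases and has several annotated starts, and its 1 named feature does not tell transcripts apart.

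Myod1 (chromosome 7, 46376474 to 46379092) had the smallest difference and the narrowest gap. Fasted arrays read 6.98, 7.35 and 6.87 in log2 signal, and refed arrays 7.81, 7.75 and 7.54. The highest fasted array, replicate 3, came within 0.19 of the lowest refed one, replicate 11. Means of 7.70 ± 0.14 in refed and 7.06 ± 0.25 in fasted muscle (SD, n = 3 each) differed by 0.64 (SE 0.16), or 1.55-fold. Whether the differences of the 4 genes differ from one another was not tested, and each has an SE of 0.15 to 0.18.

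**Figure D2:**
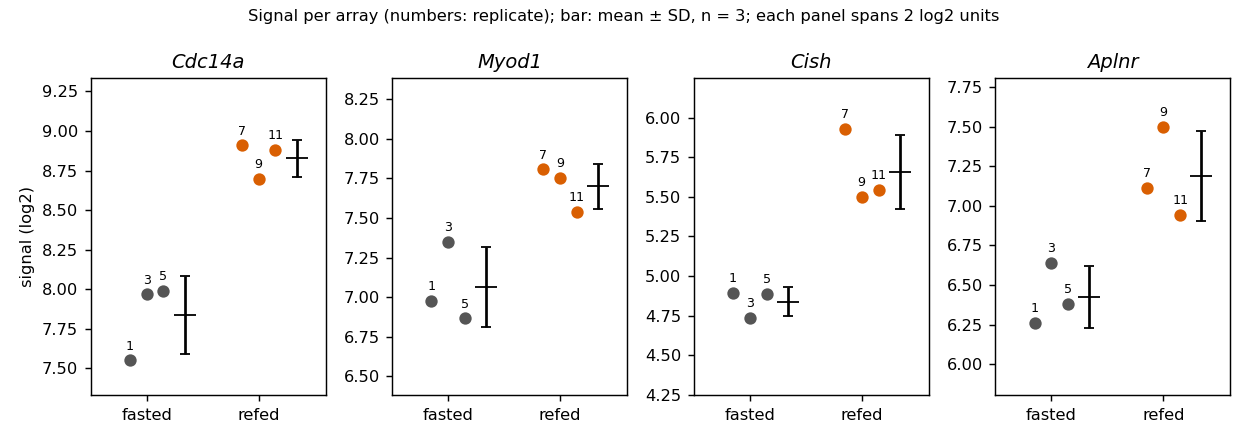
Log2 signal of each gene on the 3 fasted (grey) and 3 refed (orange) arrays, each point labelled with its replicate number, and the group mean ± SD (n = 3) as a bar beside the points; every panel spans the same height on the log2 scale. No refed point lies as low as a fasted one, and the gap between the groups runs from 0.19 for Myod1 to 0.70 for Cdc14a.

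In all, 4 of 4 genes had refed and fasted arrays that did not overlap, refed being higher, where 4.53% of all 41345 features did. Among the 160 features of the authors' list that were higher in refed muscle, 135 had no overlap either. The genes were chosen from that list on this contrast, and nothing is read from their separation. In the limma fit over all features, 0 of the 4 genes had an adjusted p under 0.05 (Benjamini-Hochberg), and the background was 0% of features. At an unadjusted p under 0.05 the same fit held 2009 features, or 4.86%, of which 858 were higher in refed muscle (2.08%). An ordinary linear model without moderation called 0 at the adjusted threshold and held 1851 features at the unadjusted one (4.48%).

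The differences of the 4 genes lay in the upper tail of the array, where their choice from the list placed them in advance. Cdc14a was exceeded by 49 features (0.119%), Cish by 132 (0.319%), Aplnr by 185 (0.447%) and Myod1 by 355 (0.859%). The median difference of all features was 0.00, and the 99th percentile was 0.61. The authors' list held 160 features that were higher in refed muscle, and the smallest of these differences came to 1.5-fold, so Myod1 at 1.55-fold sat near its lower edge. In the whole set of features, 469 were at least 1.5-fold higher in refed muscle (1.13%), of which 199 had no overlap between groups (0.481%). Of the 160 listed features, 50 carry a symbol. By size of difference Cdc14a came in place 3 among these 50, Cish in place 11, Aplnr in place 17 and Myod1 in place 38.

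**Figure D3:**
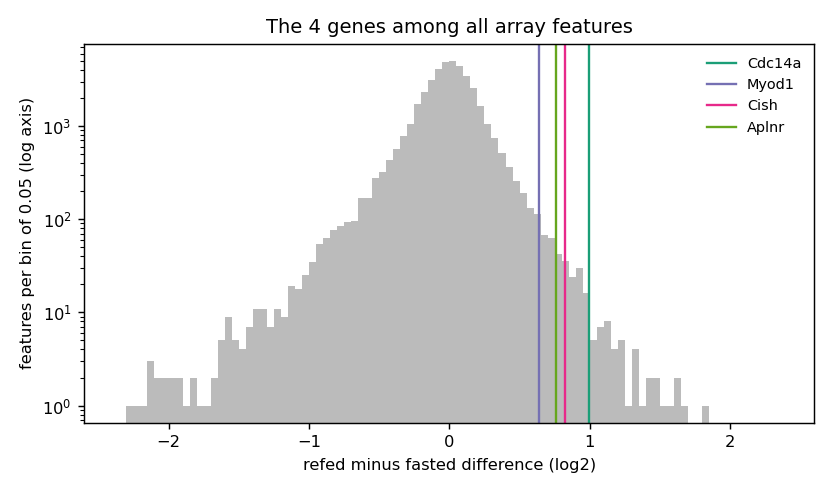
Refed minus fasted difference (log2, mean of 3 arrays in each group) of all 41345 features, counted in bins of 0.05 on a log axis, with a line for each of the 4 genes. All 4 lie to the right of the 99th percentile at 0.61, from Myod1 at 0.64 to Cdc14a at 0.99. A place in this tail was set by the choice of the genes from the authors' list.

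The spread of these genes between arrays was ordinary. The SD pooled over both groups was 0.19 for Cdc14a, 0.21 for Myod1, 0.18 for Cish and 0.24 for Aplnr on the log2 scale, where the median of all features was 0.19. The pooled SD was smaller than theirs in 50.4%, 54.6%, 44.7% and 65.3% of features, respectively. Relative to it the differences came to 5.12 SDs for Cdc14a, 4.62 for Cish, 3.13 for Aplnr and 3.09 for Myod1. The genes were chosen on this contrast and these arrays. Such a choice favours large ratios and can favour small SDs, so both are a description only. None of the 4 features shared all its values with another feature of the table.

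Within a group the 4 genes did not follow one common order of arrays. On fasted array 3, Myod1 and Aplnr were above their fasted means by 0.28 and 0.21, and Cdc14a by 0.13, while Cish was at -0.10. Fasted array 1 was the lowest for Cdc14a (-0.29 from its fasted mean) and for Aplnr (-0.17), but not for Myod1 or Cish. Among refed arrays, replicate 7 was the highest for Cdc14a, Myod1 and Cish, by 0.08, 0.11 and 0.27 over the refed mean, and replicate 9 for Aplnr, by 0.31. Replicate 11 was the lowest refed array for Myod1 (-0.16) and Aplnr (-0.24), and replicate 9 for Cdc14a (-0.13) and Cish (-0.16). With each gene set to 0 at its mean of 6 arrays, the mean of the 4 genes was -0.52, -0.27 and -0.41 on fasted arrays 1, 3 and 5 and 0.50, 0.42 and 0.28 on refed arrays 7, 9 and 11.

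**Figure D4:**
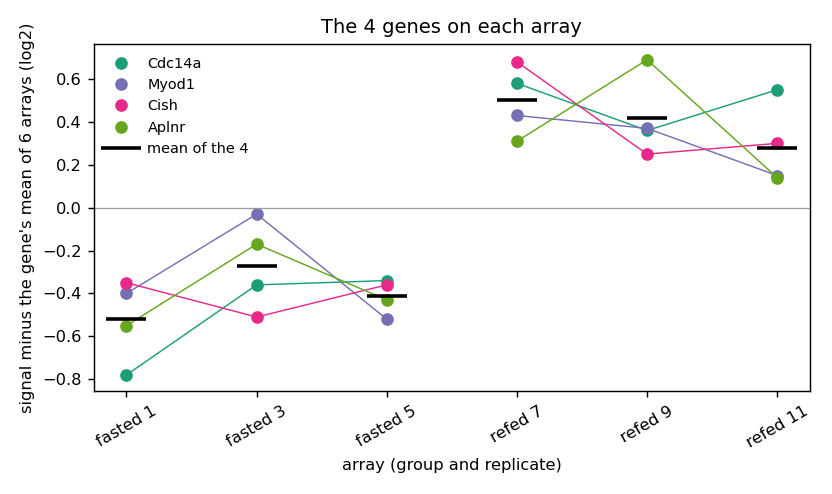
Log2 signal of the 4 genes minus each gene's mean over the 6 arrays (vertical axis) on each array (horizontal axis), with thin lines joining one gene's points within a group and black bars for the mean of the 4 genes. Fasted arrays lie below 0 and refed arrays above it for each gene, and the order of arrays within a group differs between genes.

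Likeness between genes was measured as the root-mean-square difference of these centred profiles over the 6 arrays, on the log2 scale. Myod1 and Aplnr were the closest pair of the 4 genes at 0.17, and 0.148% of all features were closer to Myod1 than Aplnr was. Cdc14a and Cish were 0.22 apart, but with a smaller share, 0.0532% of features, closer to Cdc14a than Cish was. Such shares depend in part on the contrast that chose the genes. Myod1 and Cish were 0.24 apart, Cdc14a and Aplnr 0.27, Cdc14a and Myod1 0.28, and Cish and Aplnr 0.29. With each group's mean removed, so that the shared contrast no longer counts, Myod1 and Aplnr were still the closest pair at 0.15, and the other 5 pairs lay between 0.20 and 0.29. These are distances over 6 arrays that share their normalization, and no share over all features was taken for those with group means removed.

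Outside the 4 genes, 56 named features of the authors' list without a predicted, clone or small RNA name could be compared. Closest to Myod1 was the vomeronasal receptor gene Vmn2r56 at 0.09, then Hsfy2 at 0.16 and the T cell receptor segment Trbv10 at 0.17. Trbv10 also led for Aplnr at 0.09, followed by Cyp26b1, which codes for an enzyme that breaks down retinoic acid, at 0.14 and Hsfy2 at 0.18. Cish was nearest to the pseudogene Mug-ps1 at 0.11, with the olfactory receptor gene Olfr429 and Hsfy2 both at 0.19. Dsg1c, a desmosomal cadherin gene, Mug-ps1 and Serpinb9e, a serine protease inhibitor gene, were all 0.19 from Cdc14a.

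Most of these neighbours were dim. Cyp26b1 had a log2 signal of 6.42 ± 0.44 in refed and 5.77 ± 0.09 in fasted muscle (SD, n = 3 each), while the fasted mean of the others ran from 2.10 for Hsfy2 and Serpinb9e to 3.45 for Dsg1c. Their likeness was partly set in advance, since every one of them entered the authors' list through the same contrast. Counting unnamed features too, 1 feature of the table was at least as close to Aplnr as Trbv10, Trbv10 itself, and 4 were at least as close as Cyp26b1. For Myod1, 87 features were at least as close as Trbv10.

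For the pathways around the 4 genes, lists of myogenic factors (15 genes), STAT5 and cytokine feedback (23), the apelin system (9) and CDC14 with mitotic exit (14) were looked up. None of these 61 genes has a named feature in the tables used here, so partners such as Myog, Socs2, Apln and Cdc14b are not analysed here. The same held for the markers of satellite cells (7 genes), endothelium (8), T lymphocytes (7), macrophages (5) and fibroblasts (5). Whether the share of satellite or endothelial cells in the muscle pieces moved with Myod1 or Aplnr was not tested.

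Red cell transcripts were the one set of cell type markers with named features, 2 of 8, and both were lower on the refed arrays. Alas2, the haem synthesis enzyme of red cell precursors, had log2 signals of 7.54, 7.93 and 7.04 on the fasted arrays and 6.78, 6.27 and 6.90 on the refed arrays. The beta globin gene Hbb-bt read 6.78, 7.28 and 6.36, and then 6.21, 5.55 and 6.35. The mean of both was 6.70 to 7.61 on fasted and 5.91 to 6.63 on refed arrays, without overlap. Refed arrays lay below fasted ones without overlap in 5.02% of all single features. For Hbb-bt the lowest fasted and the highest refed array nearly met, at 6.36 and 6.35. Within groups the order of arrays was mixed: fasted array 3 was the highest fasted array for both red cell genes and for Myod1 and Aplnr, while refed array 11 was the highest refed array for both red cell genes and the lowest for Myod1 and Aplnr. Both red cell genes come from the list selected on these arrays, and their part in the differences of the 4 genes was not tested.

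The size of the differences depended in part on single arrays. Without any one array the difference ran from 0.85 to 1.07 for Cdc14a, from 0.54 to 0.78 for Myod1, from 0.69 to 0.90 for Cish and from 0.61 to 0.88 for Aplnr. The low end came without fasted array 1 for Cdc14a, without fasted array 5 for Myod1, without refed array 7 for Cish and without refed array 9 for Aplnr. Because the groups do not overlap for these genes, leaving out an array could not turn a direction. Myod1 was below 1.5-fold in 3 of its 11 other settings, with log2 differences of 0.54 without fasted array 5, 0.56 with array weights and 0.58 without refed array 7. The other 3 genes were above 1.5-fold in each setting run.

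**Figure D5:**
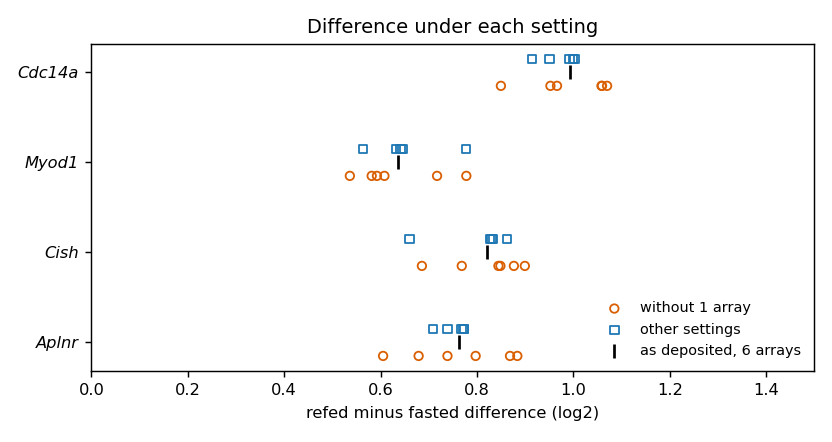
Refed minus fasted difference (log2) of each gene with all 6 arrays as deposited (black bar), with 1 array left out (circles) and under other settings (squares: quantile normalization, centring on the median or the 75th percentile, array weights, medians in place of means). The values run from 0.54 for Myod1 without fasted array 5 to 1.07 for Cdc14a without fasted array 5.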

How the data were processed

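Signal was measured on 6 arrays, 1 per sample, from biotin-labelled RNA (300 ng from muscle pieces of about 25 mg, per the labels' protocols). The authors deposited processed values for 41345 features, taken as log2 because the group differences of all 470 entries of their list equal log2 of the deposited ratio within 1.81e-05. The ratio (fold) column served only for this. Partek is named in the submitters' processing notes; how background was corrected, arrays were normalized or a genome build was chosen is not given in the sources used here. Symbols in the list are the only names, so 41211 features are unnamed.

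The members and gene lists were chosen with earlier results of these data known. All features entered 1 fit without covariate or filter (lmFit, eBayes, limma 3.58.1, R 4.3.3), and Benjamini-Hochberg adjustment ran over all of them. SEs are from this fit. Simulated data served to check its estimated differences, and its SEs were not checked. With 3 arrays a group, precision is limited by their number, and the median SE of a difference was 0.16. Named genes are the 4 members, the 3 closest named features of each, and list or marker genes with a named feature. Gene positions and promoters are from RefSeq (GRCm38.p6). Figures used Python 3.11.15 and matplotlib 3.10.9.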

Additional observations from a re-analysis of the deposited data

How the results depend on the processing

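Quantile normalization, centring on each array's median or 75th percentile, array weights, group medians and leaving out each array in turn gave 44 further values for the 4 genes. Each moved by less than 1 pooled SD. For the values with 1 array left out this was fixed in advance. With 3 arrays a group, leaving out 1 cannot move a difference by 1 pooled SD. All were positive, which is no sign of stability, since means or medians of groups that do not overlap cannot change order when arrays are left out or weighted. Limma called 0 features at adjusted p under 0.05 in each setting in which it was refitted (both centrings, quantile normalization, a filter to features above the median level, no moderation, a robust prior with trend, array weights, and without each array); 2009 had an unadjusted p under 0.05 in the fit as reported. The count of features with refed above fasted and no overlap, 1874 with all arrays, was 898 above the median level, where fewer features were counted, and 3321 to 4401 with 1 array left out, where fewer arrays have to be in order. No paired analysis was possible because fasted and refed arrays carry different replicate numbers. Precision is limited by 3 arrays a group, and signal over background is not given in the values used here.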
